A study of Mus musculus with 6 samples.

Results

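Among the 29602 chromatin regions that had an Arid3a CUT&Tag peak in all 6 libraries, 106 were weaker in every siRNA-labelled library than in every negative control library by a factor of at least 1.2. These 106 regions, of 79295 merged regions in all, are the subject here. They were chosen by measured values: overlapping peaks of the 6 libraries were merged, the highest fold enrichment of each library in each region was divided by the median of that library over the 29602 shared regions, and the lowest of the 3 control values had to reach 1.2 times the highest of the 3 siRNA values. Their lower fold is therefore a description, given with no test. They made up 0.358% of the shared regions, and the same rule with the groups exchanged gave 95 regions, or 0.321%.

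Primary smooth muscle cells of mouse vessels (VSMCs), whose contraction sets vessel tone, were bought from a supplier. By their labels, 3 libraries had a negative control siRNA (called NC-labelled, 1 to 3) and 3 had si-Arid3a#1, si-Arid3a#2 or si-Arid3a#3 (called siRNA-labelled, 1 to 3), and every library used an Arid3a antibody on 10000 cells. Cells were left with the siRNA for 24 h. The labels also describe a model of abdominal aortic aneurysm in which VSMCs receive angiotensin II for 36 h, but do not say which libraries, if any, had this exposure. Each siRNA-labelled library carries its own siRNA number, so siRNA and library cannot be told apart, and nothing says that libraries with the same label were separate cultures. Each of the 6 peak lists names its peaks after the other group. Groups follow the sample labels here, and every direction below would turn round if the peak names were right.

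Arid3a belongs to the ARID proteins, transcription factors named for their AT-rich interaction domain, and is best known from B lymphocytes and early development, where it binds AT-rich DNA and can act as an activator or a repressor. CUT&Tag maps such a protein by guiding a transposase to it with an antibody, so that fragments are released around the bound site. A peak caller then reports each place where fragments pile up above the local background. The fold enrichment used here is the deposited ratio of that pile-up at its highest point, the summit, to the local background, taken here to have 1 added to both. The added 1 and a Poisson p-value are assumptions about the peak caller, whose settings the sources do not state. Under them the deposited fold and p-value fix both terms, and the fragments stacked at the summit (a whole number) and the background around it could be solved for each of the 293338 peaks.

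Few of the members lay at promoters, and the sequences of those that did are shown first, since these are the members for which a DNA sequence was at hand. RefSeq promoter windows (GRCm38.p6, the build also called mm10) overlapped 11 members, with 13 windows from 12 genes. That was 10.4% of members, against 26.1% of all shared regions and 18.9% of the 95 regions of the opposite direction. No windows were at hand for 1 member, at Cdh2, so it could not be counted. The same held for 3.38% of shared regions and 3.16% of the 95. The sequences below come from 4 of the 12 genes, 5′ to 3′ on the strand of the gene. They are the bases before the start that lie in no annotated gene. Capitals mark 4 motifs on either strand: CCAAT, the GC box (GGGCGG), the TEAD letters (GGAATG or GGAATT) and the AP-1 letters (TGAGTCA or TGACTCA).

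Galk1, chr11:116012720-116012969, minus strand: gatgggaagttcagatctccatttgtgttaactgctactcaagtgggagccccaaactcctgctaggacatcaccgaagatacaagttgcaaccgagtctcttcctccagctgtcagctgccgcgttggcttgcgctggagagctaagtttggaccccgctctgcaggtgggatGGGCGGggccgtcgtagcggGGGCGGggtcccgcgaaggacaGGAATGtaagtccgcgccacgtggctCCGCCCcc
Pir, chrX:164269181-164269430, plus strand: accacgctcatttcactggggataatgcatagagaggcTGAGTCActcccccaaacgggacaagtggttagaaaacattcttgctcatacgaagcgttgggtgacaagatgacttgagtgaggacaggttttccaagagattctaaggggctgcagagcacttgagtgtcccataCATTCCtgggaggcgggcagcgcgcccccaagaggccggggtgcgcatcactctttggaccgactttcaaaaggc
Zfp954, chr7:7121477-7121726, minus strand: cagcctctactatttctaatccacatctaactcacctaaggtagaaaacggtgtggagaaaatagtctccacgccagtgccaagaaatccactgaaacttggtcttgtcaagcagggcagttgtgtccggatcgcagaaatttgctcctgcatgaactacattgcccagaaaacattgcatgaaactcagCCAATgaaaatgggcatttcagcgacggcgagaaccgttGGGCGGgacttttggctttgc
Cdc25a, chr9:109875329-109875517, plus strand: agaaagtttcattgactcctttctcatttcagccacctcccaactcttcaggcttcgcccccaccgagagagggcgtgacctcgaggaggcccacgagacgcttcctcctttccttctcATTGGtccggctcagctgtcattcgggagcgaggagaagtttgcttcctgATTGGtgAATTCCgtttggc

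Arid3a itself is known to bind AT-rich DNA, and the core letters AATTAA were found in 2 of the 13 windows (250 bases before the start, both strands). They stood in 10.3% of all 32536 promoter windows and in 4.61% of the 10329 windows under shared regions. The second form searched, ATTAAA, was in 0 of the 13. The 2 sites, with the core in capitals, lie before the starts that the promoter windows use for Cdc25a and D8Ertd738e. By the annotated gene bounds both sites lie inside these genes. Those bounds begin at base 109875518 for Cdc25a and span 84246233 to 84251711 for D8Ertd738e.

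Cdc25a, chr9:109875549-109875578, plus strand: tcctgagtgtgcagcAATTAAcgctaaggc
D8Ertd738e, chr8:84249844-84249873, minus strand: cctgaaaatggtAATTAATTttccttccaa

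At the D8Ertd738e site the core reads the same on both strands, in letters that overlap. Counted from the starts of the windows, the summits of the Cdc25a region spread from 211 bases before to 198 bases after. Those of the D8Ertd738e region spread from 190 before to 441 after. The GC box was in 6 of the 13 windows against 63.0% under shared regions, and CCAAT was in 6 against 37.0%. GGAATG was in 5, from 4 genes, since 2 windows of Pdzd9 overlap, against 9.91%, and GGAATT was in 2 against 7.98%. Further letters were searched, with shares on both sides. Among them CCGGAAG was in 0 against 15.4%, TGACG in 1 against 30.2% and TGTTTAC in 2 against 1.86%. The windows under members held a median of 10 CpG pairs in 250 bases, against 18 under shared regions and 6 over all promoters. With 13 windows, some of which overlap, these shares are coarse, and a match of letters is no evidence of binding.

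The 10 members with the highest ratio of the lowest control to the highest siRNA value came first by the rule for naming regions. The leading region lay outside genes, 387333 bp from Rgmb, a co-receptor of bone morphogenetic proteins, at chr17:16218579-16219113. Its summit held 16, 17 and 17 fragments in the controls, from library 1 to library 3, against 6, 8 and 7 with siRNA, in the same order. The control values were close to one another, while a gap to the siRNA values is what the rule asks of every member. In folds this was 9.63, 10.6 and 10.1 against 4.65, 5.89 and 5.20, a rule ratio of 1.69.

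The widest gap in group means belonged to a region inside Itih5, which encodes a heavy chain of the inter-alpha-trypsin inhibitor family that binds hyaluronan in the extracellular matrix. It spans chr2:10168006-10168832, and its summit held 38, 35 and 27 fragments against 13, 12 and 9. Its mean scaled fold was 2.06 times higher in the NC-labelled libraries, the top value of the 106 members. Summed over libraries it had 100 fragments (exact Poisson 95% interval 81.4 to 122) against 34 (23.5 to 47.5). Such intervals cover counting error only, and not the lower depth of the siRNA-labelled libraries described below. The region was also chosen by a fold that holds these counts, so the intervals are no test of the difference.

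Of the leading 10, 6 lay inside genes and 4 outside. In Garre1, which encodes a regulator of Rac1 signalling, the summit held 16, 16 and 15 fragments against 7, 7 and 7. In Pgm5, which encodes a phosphoglucomutase-related protein of muscle adhesion sites, it held 19, 14 and 13 against 5, 7 and 7. The Pgm5 controls were uneven, with library 1 above the others. Vps53 encodes a subunit of a tethering complex for vesicles that return to the Golgi, and its region held 16, 17 and 15 fragments against 8, 9 and 10. Extl2, a glycosyltransferase of the exostosin family, had 24, 25 and 25 against 11, 14 and 11. These regions rest on small counts, and a single fragment moves a siRNA value of 7 by a visible step.

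Outside genes, a region 36015 bp from Aftph, a clathrin trafficking gene, held 18, 22 and 19 fragments against 7, 10 and 10. A region 37883 bp from Ednra, which encodes the type A endothelin receptor of smooth muscle, held 16, 19 and 15 against 7, 7 and 8. A region 8011 bp from Prl3d3, a placental prolactin-family gene, held 14, 24 and 16 against 6, 9 and 8. The control value of library 2 stood above the other controls there.

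**Figure D1:**
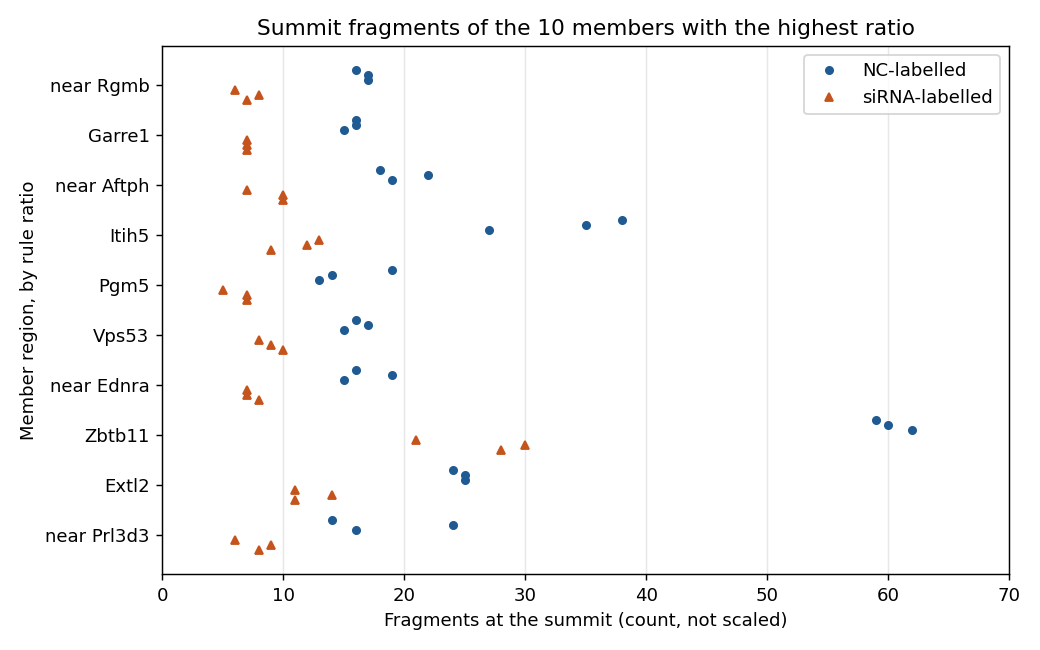
Fragments at the summit (horizontal axis, count, not scaled) of the 10 members with the highest ratio, 1 row a region. Blue circles are the 3 NC-labelled and orange triangles the 3 siRNA-labelled libraries, drawn from library 1 at the top of each trio to library 3. Zbtb11, at 59 to 62 against 21 to 30, stands apart from the other 9, whose siRNA-labelled values do not exceed 14.

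The Zbtb11 region was the best covered of the leading 10. Zbtb11 encodes a zinc finger transcription factor, and the region (chr16:55974244-55975393) covers the start of Zbtb11os1, a long non-coding RNA on the opposite strand. Its summit held 59, 60 and 62 fragments in the controls against 21, 30 and 28 with siRNA. The controls lay within 3 fragments of each other, and its mean scaled fold was 1.64 times higher in them. Only 389 bases away lies another shared region, chr16:55973400-55973854, over the start of Zbtb11 at base 55973804. That neighbour went the other way: its summit held 21, 25 and 28 fragments in the controls against 30, 31 and 39 with siRNA, although the latter libraries were shallower. It ranked 3 in the set of 95 stronger regions. Thus the member held 2.81, 2.40 and 2.21 times the summit fragments of its neighbour in the controls, but 0.700, 0.968 and 0.718 times with siRNA. The pair was singled out after its values were seen.

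Counted by depth rather than by ratio, the best covered members lay mostly inside genes. Vps13d, which encodes a lipid transfer protein needed for mitochondrial upkeep, had 78, 70 and 63 summit fragments against 35, 32 and 36 at chr4:144929651-144930762. Pxk, which encodes a kinase-like protein with a lipid-binding PX domain, had 73, 67 and 61 against 32, 26 and 39 at chr14:8153973-8154979. Pxk also had the highest folds of the members in the NC-labelled libraries 1 and 3, and its folds read 16.3, 14.3 and 14.9 against 10.8, 9.43 and 11.7. The group gaps of Vps13d and Pxk are narrower than at Zbtb11, with mean scaled folds 1.36 and 1.42 times higher in the controls. Snap47, a member of the SNARE membrane fusion family, had 64, 68 and 57 against 33, 33 and 31 fragments.

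Other members in this best covered group lay at regulators and adhesion genes. Within Foxp1, a forkhead transcription factor gene, the summit held 49, 46 and 43 fragments against 20, 24 and 29. Within Creb5, a gene of the cyclic AMP response factor family, it held 49, 47 and 44 against 23, 18 and 29. At an end of Cdh2, which encodes the adhesion protein N-cadherin, it held 41, 45 and 38 against 21, 23 and 27. All 3 regions had siRNA-labelled counts that differed more among themselves, in proportion, than the control counts, but these counts are not scaled for depth. At Foxp1 the scaled folds were 1.54, 1.42 and 1.48 against 1.05, 1.06 and 1.08, closer together with siRNA. At Creb5 they were 1.69, 1.83 and 1.77 against 1.41, 1.00 and 1.28, further apart with siRNA. The remaining 3 of the best covered 10 lay 71832 bp from Thbs1, 52667 bp from Rfc3 and inside Fam227b, with 38 to 50 control fragments and 18 to 26 siRNA fragments between them.

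The value of 1.2 is not a natural break. Just inside it were the Creb5 region at 1.204, a region 121742 bp from Fam204a at 1.202 and one 787139 bp from Zeb2 at 1.2001. Just outside were Trp53i13 at 1.1999, Nkap at 1.199 and a region 116474 bp from Ranbp3l at 1.197. With a factor of 1.1 there were 412 weaker and 553 stronger regions, with 1.3 there were 30 and 17, and with 1.4 there were 8 and 3. The groups merely did not overlap in 1661 weaker (5.61%) and 2573 stronger (8.69%) regions. For the deposited fold as scaled here, the stronger direction was thus the more frequent near equality of values, and the weaker one at wide gaps. The order at 1.2 moved with the measure. Without the added 1 there were 99 weaker and 105 stronger regions, and without scaling 119 and 79.

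**Figure D2:**
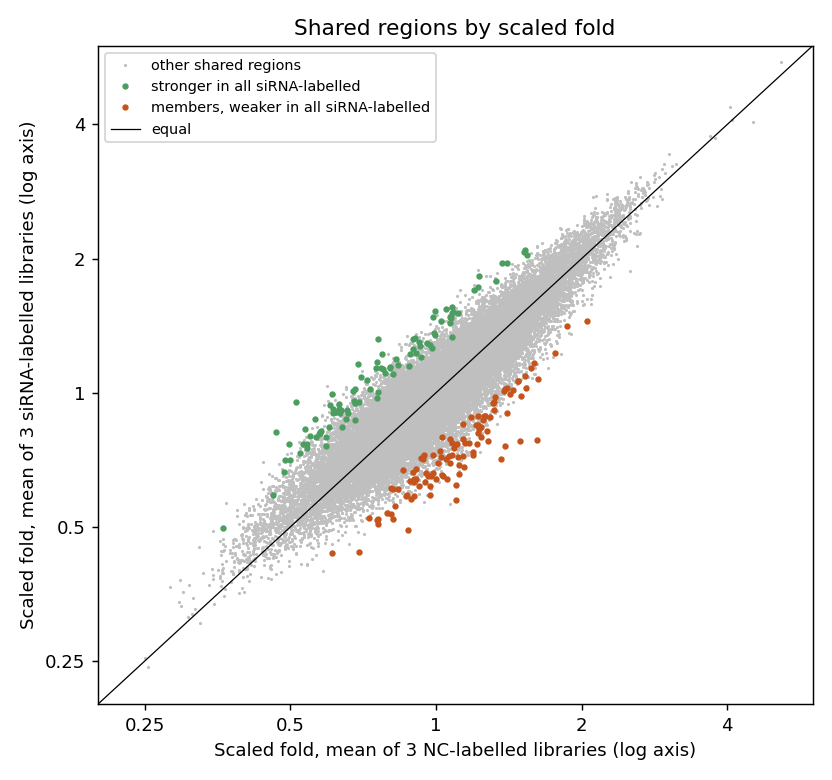
Mean scaled fold of the 3 siRNA-labelled libraries (vertical) against that of the 3 NC-labelled libraries (horizontal), log axes, for the 29602 shared regions. Orange points are the 106 members, green points the 95 regions of the opposite direction, and the line marks equal values; both sets form the rims of a single cloud.

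The summit fragments are one term of the fold that chose the members, so their values only describe what the rule picked. The median member had 20.5, 22 and 20.5 summit fragments in the controls against 10, 11 and 11 with siRNA. The whole siRNA-labelled group was shallower, so each library was scaled to its median over all shared regions, and the medians were then 0.707, 0.733 and 0.732 against 0.476, 0.458 and 0.423. The scaled local background did not fall in the same way, with medians of 0.547, 0.522 and 0.532 against 0.508, 0.487 and 0.515. The mean scaled background was higher in the NC-labelled libraries in 81 members (76.4%), against 51.5% of all shared regions, and a higher background by itself lowers the fold. Scaled summit fragments were lower in every siRNA-labelled library, without overlap, in 106 of 106 members (7.7% of all shared regions), and past a factor of 1.2 in 74 (0.885% of all). Nothing is read from these counts, since the choice of members nearly fixes them.

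**Figure D3:**
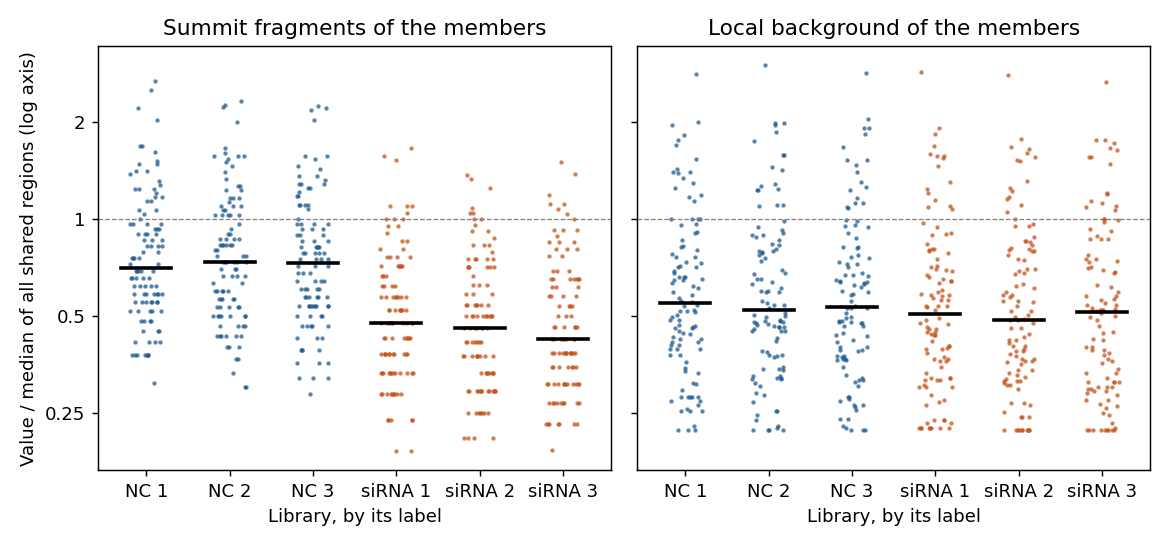
Summit fragments (left) and local background (right) of each of the 106 members in each library, divided by the median of that library over all shared regions (log axis). Points are members, black bars their medians; for fragments the control bars lie from 0.707 to 0.733 and the siRNA bars from 0.423 to 0.476, and for background every bar lies between 0.487 and 0.547.

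Peaks were shorter in the siRNA-labelled libraries, in the members and elsewhere. Median member peak widths were 582.5, 584 and 580.5 bp in the NC-labelled libraries against 453.5, 491 and 541.5 bp. Over all shared regions they were 638, 633 and 622 bp against 553, 533 and 567 bp, and in the stronger set 489, 523 and 490 bp against 431, 432 and 459 bp. The mean of these medians was 1.18 times higher in the controls for members, 1.15 times for all shared regions and 1.14 times for the stronger set. The merged member regions had a median width of 742.5 bp and ranged from 329 to 1627 bp. The summits of the 6 libraries were spread over a median of 193.5 bp in a member, over 155 bp in all shared regions and over 116 bp in the stronger set.

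No single library set the membership. The highest siRNA value came from library 1 in 37 members, library 2 in 40 and library 3 in 29. The lowest control value came from library 1 in 30, library 2 in 42 and library 3 in 34. Across members the mean scaled fold of the NC-labelled libraries was a median of 1.46 times that of the siRNA-labelled ones (range 1.27 to 2.06).

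By position, most members lay away from gene ends, as did most shared regions. Only 12 of 106 (11.3%, exact 95% interval 5.99 to 18.9%) lay within 1000 bp of either end of a protein-coding gene, against 30.3% of all shared regions and 18.9% of the stronger set. A further 44 (41.5%) lay inside genes and 50 (47.2%) outside them, against 36.6% and 33.2% of shared regions. The annotation gives gene bounds only, so exons, introns and UTRs were not told apart. Members more than 50 kb from the nearest protein-coding gene numbered 30 (28.3%), against 12.1% of shared and 7.37% of stronger regions. The members outside genes lay a median of 68387.5 bp from the nearest gene, against 29189 bp for shared and 21212 bp for stronger regions. The gene-end share was 21.4% without NC-labelled library 1, 20.2% without NC-labelled library 3 and 20.9% without siRNA-labelled library 3, in the larger sets of 266, 282 and 330 regions that the rule then gave. These shares are descriptions, since regions are not replicates.

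The position of the members moved with the 1 taken to be added to both terms of the fold. When the same rule was applied to fragments over background without it, 99 regions were weaker, of which 60 were among the 106. Their share at gene ends was 21.2% (13.6 to 30.6%) against 16.2% of the 105 stronger regions so found. The share more than 50 kb from a gene was then 17.2% against 12.4%. The low share at gene ends relative to the stronger set thus did not hold without the pseudocount, and both sets still lay below the 30.3% of all shared regions.

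The local background behaves likewise. Split into quintiles of all shared regions by mean background (lowest to highest), the members numbered 54, 24, 16, 11 and 1, and the stronger regions 19, 21, 21, 15 and 19. Without the pseudocount the numbers were 32, 26, 17, 21 and 3 against 41, 25, 22, 10 and 7. Few members thus lay where the background was highest, while their excess over the stronger set in the lowest quintile was seen only with the deposited fold. Position and background went together: 16.1% of shared regions in the lowest quintile lay at gene ends, against 38.9% in the highest. Within the lowest quintile, members were 0.210% of gene-end regions, 0.885% of those inside genes and 1.18% of those outside. The most frequent background value of a library's peaks, which stands for its coverage away from peaks, was 0.670, 0.673 and 0.621 fragments in the controls against 0.475, 0.482 and 0.538 with siRNA, 1.31 times higher in the former (two-sided exact permutation p = 0.1, the smallest that 3 against 3 allows). A fixed addition of 1 weighs more where the background is lower, and its part in the choice of single members was not tested beyond the rule without it.

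**Figure D4:**
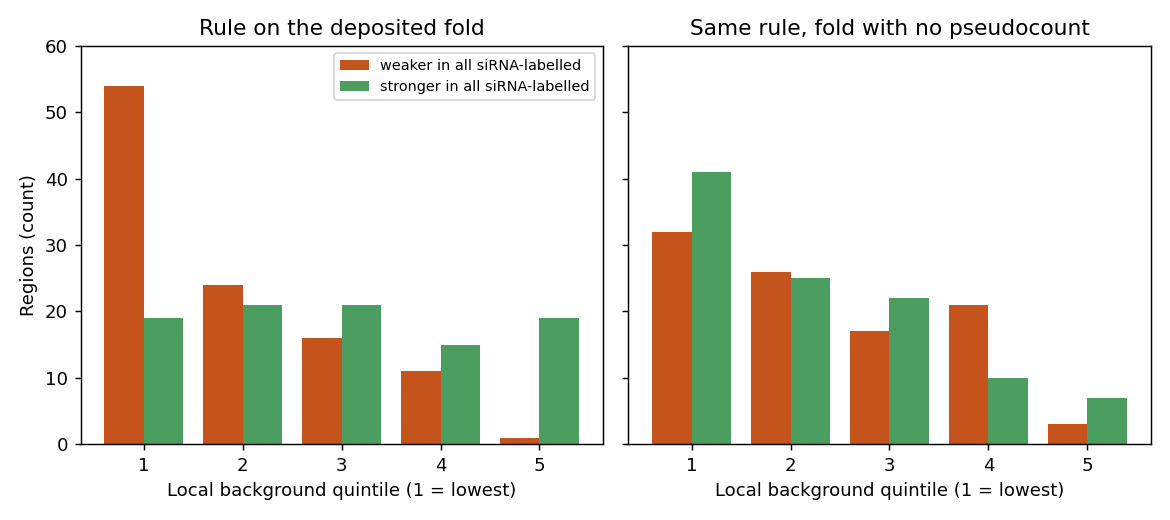
Number of regions (bars from 0) weaker (orange) and stronger (green) in all siRNA-labelled libraries, by quintile of local background, for the deposited fold (left) and for the fold with no pseudocount (right). On the left 54 weaker regions sit in the lowest quintile against 19 stronger; on the right it is 32 against 41.

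Members at gene ends were few enough to name, some after their values were seen. Zfp954, a zinc finger gene, had 20, 22 and 22 summit fragments against 12, 12 and 12. Galk1, which encodes galactokinase, had 36, 44 and 36 against 20, 25 and 21. Cdc25a, the phosphatase gene that promotes entry into S phase, had 17, 18 and 16 against 10, 10 and 13. Cdc25a had the narrowest mean gap of all 106 members, 1.27 times. Pir, the gene of the nuclear protein pirin, had 14, 15 and 15 against 10, 8 and 8. The region at Mrpl55, a mitochondrial ribosomal protein gene, had 19, 27 and 19 against 9, 11 and 10, and its 6 summits lay from 61 to 91 bases after the Mrpl55 start. That is the tightest set of summits among the promoter members. The other 7 are at Cdh2 (above) and at Mri1, Bnc2, Lonrf1, Spcs3, Rdx and Cplane1. The 6 last named had 13 to 41 fragments in the controls and 7 to 24 with siRNA. The region at Mri1 lies inside D8Ertd738e and is the same as the D8Ertd738e region of the ARID3A core search.

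Of 352 genes on 21 lists for vascular biology, chosen with earlier results of these data known, 8 had a member assigned as the nearest or overlapping region. These 8 members were among 1672 shared regions assigned to list genes (0.478%, against 0.358% of all shared regions), so the lists held about the background share. None of the 8 lay at a gene end. No member was assigned to the contractile smooth muscle list (101 shared regions) or the TGF-beta and SMAD list (144). The lists for integrins and adhesion (111) and the cell cycle (67), and further lists, had none either. The lists do not cover every gene of their kind: Cdh2 and Cdc25a, named above with members at gene ends, are on none of them. At the background share of 0.358% lists of this size can hold none, so nothing is read from their lack of members.

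The 8 were spread over lists and each stood alone at its gene. A region in Arid5b, another gene of the ARID family, had 47, 48 and 36 summit fragments against 14, 20 and 24, and 1 of its 15 shared regions was a member. Foxp1 had 42 shared regions and 1 member. Klf6, a Kruppel-like factor gene, had 31, with its member 57051 bp away at 34, 31 and 31 against 16, 21 and 22 fragments. Jun, a subunit of AP-1, had 7, with its member 30086 bp away at 27, 25 and 27 against 13, 13 and 14. Ptgs2, the inducible cyclooxygenase gene of prostaglandin synthesis, had 8, with its member 89300 bp away at 28, 33 and 23 against 9, 18 and 15. siRNA-labelled library 1 was the lowest there by a wide margin. Thbs1, the gene of the matricellular protein thrombospondin-1, had 17 with its member at 43, 47 and 44 against 23, 25 and 26. Zeb2 had 28 and Ednra 2. Counting the members themselves, the regions with a higher mean scaled fold in the controls numbered 12 of 31 at Klf6, 6 of 17 at Thbs1, 2 of 7 at Jun, 8 of 15 at Arid5b, 23 of 42 at Foxp1, 17 of 28 at Zeb2, 5 of 8 at Ptgs2 and 2 of 2 at Ednra. Regions of both directions thus lay at 7 of the 8 genes, and Ednra was the exception.

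The surroundings of the members did not share their direction. Of 468 other shared regions within 100 kb of a member, 209 (44.7%) were higher in the NC-labelled libraries, against 45.0% of all shared regions. Over the 46 genes that held a member and another shared region, 112 of 248 other regions (45.2%) were higher. No 2 members lay within 10 kb of each other, and the smallest gap was 207507 bp. Members lay on 20 chromosomes, with 11 on chromosome 4 (0.635% of its shared regions) and 12 on chromosome 11 (0.495%).

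Close to the members the neighbours leaned both ways by distance, in a pattern noticed after the values were seen. All 9 other shared regions under 3 kb away had a lower mean scaled fold in the NC-labelled libraries, from 0.538 to 0.982 times the siRNA-labelled value (median 0.767). Besides Zbtb11 they lie beside the members at Syne1 (657 bases away), Cdh2 (806), Snap47 (852), Dennd1a (1273), Fam227b (1467), Cuedc1 (1890), Mmrn2 (2001) and Cxcl2 (2137). Of the 37 neighbours from 3 to 10 kb away, 25 were higher in the NC-labelled libraries (median 1.05). Over all 2398 adjacent pairs of shared regions under 3 kb apart, 53.4% went in opposite directions. Of 25 regions under 3 kb from a stronger region, 15 were higher in the NC-labelled libraries (median 1.05).

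In these 9 neighbours the scaled local background was higher in the NC-labelled libraries in 6, and the scaled summit fragments were lower in 7 (median 0.815 times). The background was higher in 51.5% of all shared regions, so 6 of 9 is little apart from that share. The part of either term in the pattern was not tested.

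**Figure D5:**
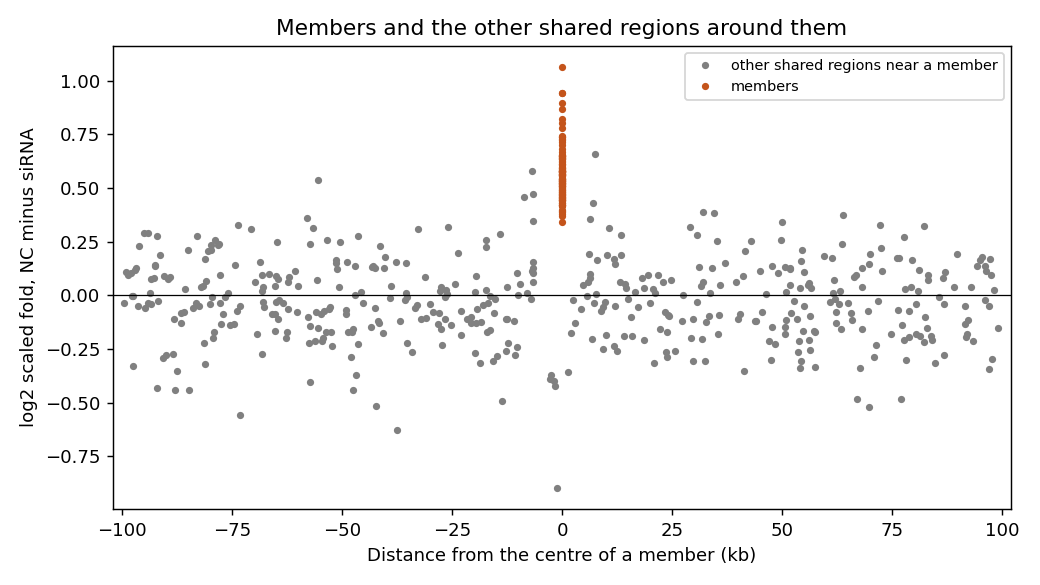
Difference of mean log2 scaled fold, NC-labelled minus siRNA-labelled (vertical), against distance between region centres in kb (horizontal), for the members (orange, at 0) and the other shared regions within 100 kb of one (grey). Grey points scatter around 0 beyond a few kb, and those nearest the members lie below 0, with the Zbtb11 neighbour lowest at -0.90.

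As a check of the label, gene-end peaks were present at 6, 6 and 6 of 8 smooth muscle marker genes in the controls against 4, 5 and 5 with siRNA; Myh11 and Des had none in any library. Fibroblast markers had 0 of 4 in every library, and endothelial, macrophage and T cell markers had 0 to 2. A peak of Arid3a is no measure of expression, so these counts do not settle the cell type. The lists held 43834 to 51682 peaks a library, with no peak identical between any 2 lists.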

How the data were processed

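CUT&Tag peaks were analysed in 6 libraries, 1 peak list each, so peaks were called per library. Per the submitters' processing notes the authors used Bowtie2, Picard, MACS2 and the build mm10; for these, versions and settings were not given. Each peak was deposited with a fold enrichment (a ratio), the −log10 p-value, the −log10 q-value, an integer score and a summit offset; the q-value served only to rank or filter peaks, and the score was not used.

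Peaks were merged (1 bp overlap) with pandas 2.3.3 and numpy 2.4.6, and the rule of the opening was applied. Summit fragments k and background b were solved from fold = (k + 1)/(b + 1) and the Poisson p-value (both forms assumed) within a relative tolerance of 0.002, which gave a value for 100% of peaks in each library; the solver and the rule were tested on simulated data. Total reads were not used here. The background per base and the median of 16 to 20 fragments at a summit stand in for depth. Positions used RefSeq gene bounds (GRCm38.p6, 21887 protein-coding genes). Gene lists and motifs, and the members, were chosen with earlier results of these data known.

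Named regions were the 10 with the highest ratio, the 10 with the most fragments in the weakest control, the 3 on either side of the threshold, gene-end members on a list (none) and members within 10 kb of another (none). Same-numbered libraries did not deviate together (correlations 0.031, 0.024 and −0.021). Intervals are exact 95% (Clopper-Pearson or Poisson). Alternatives were other factors, scalings, measures, peak filters and leaving out each library.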

Additional observations from a re-analysis of the deposited data

Results flagged for a closer look

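In 6 of 6 peak lists every peak name carries the name of the other group than the sample label gives. The names were not used to assign groups. If the names were right, the members would be the regions stronger after Arid3a siRNA, and the 95 regions of the opposite direction would be the weaker ones. Which of the 2 is right was not tested.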

How the results depend on the processing

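The number of members and of regions in the opposite direction followed the strictness of the rule: 1661 and 2573 with a factor of 1, and 4 and 0 with 1.5. Summit fragments alone gave 262 and 272. Only peaks with −log10 q of at least 5 gave 50 and 61, and summits within 200 bp gave 66 and 55. Of the 106 members, these settings kept 74, 49 and 53 in turn. With the replicate block, in which each same-numbered pair had to pass 1.2, there were 332 and 352; the numbers are not known to pair the libraries. Leaving out 1 library, which loosens the rule, gave 266 to 419 members and 301 to 397 opposite regions. The share at gene ends was 25.3% with a factor of 1, 0% of 4 regions with 1.5, and 13.9 to 21.4% with a library left out. Chosen after seeing the data, the fold with no pseudocount gave a share of 21.2% and 99 members with 105 opposite. Also chosen then, fragments over the background coverage of the library gave 103 and 588. These measures kept 60 and 50 of the 106 members. Of 74 values under alternatives, 33 stayed within their limits and 41 moved. Limits: summits of a median member rest on 10 to 22 fragments, control and siRNA libraries differ in depth, the siRNAs differ, and the groups hold 3 libraries each.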
